A study of Homo sapiens with 9 samples.

Results

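The accessible chromatin of HepG2 cells treated with the siRNA siINO80#1 was compared with that of cells treated with a non-targeting control siRNA (NTG). Peak intervals of the siINO80#1 list with no NTG interval over any base were called gained, NTG intervals with no siINO80#1 interval were called lost, and overlapping intervals were called kept. Unique intervals on the autosomes of GRCh37 (hg19) were used. Together these lists held 137128 intervals of the 192176 in the 3 lists of the series, with 29804 gained, 30062 lost, and 38540 siINO80#1 intervals that were kept over 38722 NTG intervals.

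HepG2 is an established human liver cancer cell line. Assay for transposase-accessible chromatin with sequencing (ATAC-seq) was run on 9 samples, with 3 replicates (A, B and C) in each of 3 groups. All 3 groups received 50 nM of siRNA with the lipid reagent RNAimax for 72 h: the control a non-targeting siRNA (NTG), the other two an siRNA against INO80 (siINO80#1 or siINO80#2). The replicates are described as independent siRNA treatments of the same line, the siRNAs act transiently in all transfected cells, and no INO80 transcript or protein level was used here. One peak list per group was analysed, in which the replicates are pooled, so no replicate error and no test between groups could be computed. Shares are given with Wilson 95% confidence intervals, which cover counting error only and treat intervals as independent. The siINO80#2 list was used only to see which calls repeated, and both siRNAs share the same NTG list.

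INO80 is the ATPase of a multi-subunit complex that slides nucleosomes and exchanges histone variants, and it is known for its work at promoters, at replication forks and in DNA repair. In ATAC-seq a transposase cuts DNA that is free of nucleosomes, so a peak marks an open promoter, enhancer or other protein-bound element. AP-1, a dimer of JUN and FOS family proteins, is a stress- and growth-responsive transcription factor that binds TGACTCA, mostly at enhancers; HNF4A and FOXA2 are transcription factors of liver cells.

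The lists of the siRNA and the control were of nearly equal size and covered 30.35 and 30 Mb. Each interval carried a fold enrichment (reads at the summit over the local background), whose lowest and highest values were 1.443 and 27.78 in siINO80#1 and 1.526 and 24.45 in NTG. The reads behind a summit, worked back from the fold enrichment and its p-value, had a median of 24 in siINO80#1 and 20 in NTG. The lowest background level put the siINO80#1 and siINO80#2 pools at 1.43 and 1.44 times the read depth of the NTG pool. What part depth has in the calls, and in their repeat with siINO80#2, was not tested. Fold enrichment was therefore ranked within each list, and an interval absent from a list was read as a missing call and not as closed chromatin. Of 12 hepatocyte marker genes, 11 had an interval within 1 kb of a start site in both lists (FGB, a fibrinogen chain gene, had none), against 4 of 11 blood, 6 of 11 fibroblast and stellate, 1 of 8 endothelial and 3 of 7 neuronal marker genes. The start site of INO80 itself stayed within a peak, with a fold enrichment of 4.51 (percentile 70.9) in NTG and 4.95 (percentile 78.9) in siINO80#1.

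The sequences below come from the strongest gained intervals that hold an AP-1 motif near the summit and that repeated with siINO80#2. They are shown because AP-1 letters separated gained from lost intervals by more percentage points than any other motif searched. Each is 60 bases of the GRCh37 plus strand around the motif, with the AP-1 letters (TGACTCA or its reverse complement TGAGTCA) in capitals.
JAKMIP2-AS1 intron, nearest coding gene DPYSL3, chr5:146945198-146945257: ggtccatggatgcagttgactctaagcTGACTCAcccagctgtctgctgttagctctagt
SEMA3E intron, chr7:83097764-83097823: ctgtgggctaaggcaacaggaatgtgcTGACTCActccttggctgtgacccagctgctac
PTGER4 and TTC33 intron, chr5:40689736-40689795: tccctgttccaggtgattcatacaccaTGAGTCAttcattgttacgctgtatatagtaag
FGF14 intron, chr13:102438333-102438392: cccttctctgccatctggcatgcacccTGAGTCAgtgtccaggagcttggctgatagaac
DDX59 intron, chr1:200609248-200609307: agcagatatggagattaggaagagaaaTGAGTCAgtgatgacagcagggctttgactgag
ANK2 intron, chr4:114221620-114221679: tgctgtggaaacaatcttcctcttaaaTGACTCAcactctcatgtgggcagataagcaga
The motif lay between 69 bp before and 21 bp after the summit in these 6. Their fold enrichments ran from 8.28 to 9.42, all above the 94th percentile of the siINO80#1 list, and from 5.84 to 7.26 in siINO80#2.

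The next are 60 bases from strong lost intervals that were also absent with siINO80#2, taken around the summit or, in SLC9A9, around its motif. They are among the strongest of these outside start sites.
Intergenic, nearest coding gene FRG1, chr4:190011497-190011556: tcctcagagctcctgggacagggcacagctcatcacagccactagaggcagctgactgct
SLC9A9 intron, chr3:143494329-143494388: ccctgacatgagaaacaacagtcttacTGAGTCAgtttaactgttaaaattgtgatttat
Intergenic, nearest coding gene UBE2E2, chr3:23094213-23094272: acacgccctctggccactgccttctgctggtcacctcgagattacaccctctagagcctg
ENSG00000259061 intron, nearest coding gene GALC, chr14:87427615-87427674: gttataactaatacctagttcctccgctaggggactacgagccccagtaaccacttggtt
Of these 4, SLC9A9 alone held AP-1 letters within 100 bp of the summit. The gained sequences were chosen for the motif and the lost ones were not, so their motif counts cannot be compared. The fold enrichments of these 4 lost intervals ran from 8.72 to 8.92 in NTG.

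Some gained windows held several copies of the motif. These are 3 of the 5 gained and repeated intervals with the most AP-1 letters in the 200 bases around the summit (GRCh37, plus strand), chosen after their values were seen.
Intron of ENSG00000287042, nearest coding gene GALNT15, chr3:16143086-16143285: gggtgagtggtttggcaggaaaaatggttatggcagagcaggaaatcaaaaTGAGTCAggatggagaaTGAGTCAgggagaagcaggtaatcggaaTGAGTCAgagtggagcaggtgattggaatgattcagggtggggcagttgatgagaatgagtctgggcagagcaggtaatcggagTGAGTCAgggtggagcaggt
Intergenic, nearest coding gene RAB28, chr4:12423143-12423342: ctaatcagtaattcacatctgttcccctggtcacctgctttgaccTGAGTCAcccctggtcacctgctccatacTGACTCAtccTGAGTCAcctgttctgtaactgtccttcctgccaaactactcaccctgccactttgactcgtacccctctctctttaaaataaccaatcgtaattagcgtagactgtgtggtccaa
SLC16A12 intron, chr10:91313204-91313403: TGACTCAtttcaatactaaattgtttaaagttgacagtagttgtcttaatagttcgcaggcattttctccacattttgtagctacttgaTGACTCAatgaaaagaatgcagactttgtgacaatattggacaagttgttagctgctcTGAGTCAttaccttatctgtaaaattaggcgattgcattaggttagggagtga
The GALNT15 window held 4 copies, and its interval had a fold enrichment of 5.66 in siINO80#1 and 3.83 in siINO80#2. The RAB28 and SLC16A12 windows held 3 each, with 5.36 and 4.91 in siINO80#1 and 5.21 and 4.15 in siINO80#2. The GALNT15 window and, on its other strand, the RAB28 window share a run of nearly the same letters. A window nearest to HMGCS1, among the 5 but not shown, has a similar run. Whether these windows are copies of a repeated element was not tested.

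Gained intervals made up 43.6% (43.2 to 44) of the siINO80#1 list, and lost intervals 43.7% (43.3 to 44.1) of the NTG list. The balance between them depended on how weak intervals were treated. With a −log10 q-value of at least 5 in all lists the gained share was 27.6% against a lost share of 24.5%, and with a summit of at least 5 times the genome background it was 22.3% against 30.3%. No net direction is therefore read from these shares.

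Most gained and lost intervals were weak. In the weakest decile of the siINO80#1 list 67.6% of intervals were gained, the share peaked at 78.3% in the next decile, and it fell to 1.49% in the strongest decile, where 102 intervals were gained. The NTG list ran in parallel, with lost shares of 71.1%, 76.8% and 0.945% (65 intervals). Median reads at the summit were 18 for gained and 15 for lost intervals, against 34 and 28 for kept intervals in siINO80#1 and NTG.

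The calls that repeated with siINO80#2 differed by strength and by direction. In all, 6014 gained intervals (20.2%, 19.7 to 20.6) overlapped a siINO80#2 interval, and 26911 lost intervals (89.5%, 89.2 to 89.9) had none there. The siINO80#2 list is shorter, at 52399 intervals. Of all siINO80#1 intervals 52.0% overlapped one of these, and of all NTG intervals 47.9%. Of kept siINO80#1 intervals 23.4% were missing from the siINO80#2 list. The gained share that repeated was 13.7% in the weakest decile, 8.86% in the next and 77.5% (68.4 to 84.5) in the strongest. For kept intervals of the same deciles it was 38.9%, 38.0% and 99.1%. Lost intervals went the other way, from 90.5% also absent in the weakest NTG decile to 55.4% (43.3 to 66.8) in the strongest, where 2.53% of kept intervals were absent.

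**Figure D1:**
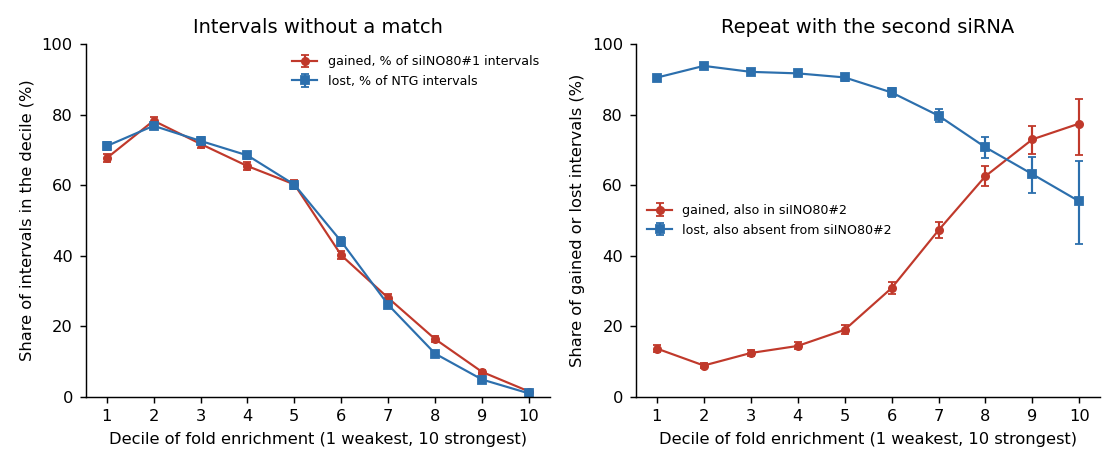
Share of intervals without a match (left) and share of those whose state repeated with siINO80#2 (right), by decile of fold enrichment within each list. Points are shares in percent, and bars are Wilson 95% intervals. Gained (siINO80#1) and lost (NTG) shares fall together from 67.6% and 71.1% in the weakest decile to 1.49% and 0.945% in the strongest, while the repeated share of gained intervals rises to 77.5% and that of lost intervals falls to 55.4%.

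The plot of shares by decile shows that the calls of the upper 3 deciles are few but carry the highest repeat of gained intervals. In the 8th, 9th and 10th deciles 1116, 481 and 102 intervals were gained, of which 62.5%, 73.0% and 77.5% repeated.

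Gained and lost intervals were each less often near start sites than kept intervals, and lost ones were slightly more often there or in exons than gained ones. Summits within 1 kb of an annotated start site (TSS-proximal) were 11% (10.6 to 11.4) of gained and 11.7% (11.4 to 12.1) of lost intervals, against 35.5% of kept ones. Introns held 50.6% of gained and 49.9% of lost intervals, and 36.8% of kept. Intergenic DNA held 35.6% and 34.9%, against 24.8% of kept. Exons away from start sites held 2.79% of gained and 3.42% (3.22 to 3.63) of lost intervals.

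Read from the feature side, 19.3% (18.7 to 19.9) of TSS-proximal siINO80#1 intervals were gained and 20.3% (19.7 to 20.9) of TSS-proximal NTG intervals were lost. In introns the shares were 51.6% and 51.4%, and between genes 52.6% and 52.3%. Exons were the feature where the directions stood apart, with 43.0% (40.8 to 45.2) gained and 48.4% (46.3 to 50.5) lost. Among TSS-proximal intervals, the nearest start site belonged to a long noncoding RNA in 24.7% of gained, 23.5% of lost and 18.7% of kept intervals.

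In shape the unmatched intervals were narrow and single. The median width was 216.5 bp for gained, 218 bp for lost and 482 bp for kept siINO80#1 intervals. Several summits were found in 7.10% of gained and 4.87% of lost intervals, against 40.7% of kept. Only 46 gained and 38 lost intervals were 1 kb wide or more, compared with 5519 kept ones. Gained intervals that repeated were wider (median 290 bp) and had several summits more often (17.4%) than those that did not (205 bp and 4.50%).

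Few unmatched intervals were near misses of an interval in the other list. The median gap to the nearest interval of the other list was 7910 bp for gained and 8347 bp for lost intervals. A gap of 100 bp or less was found for 2.5% and 2.51%, and one of 1 kb or less for 15.2% and 14.9%. The GC content of the 200 bp around the summit had medians of 44.5% (gained), 45.0% (lost) and 51.0% (kept).

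The AP-1 letters differed most in percentage points between the directions. Within 100 bp of the summit they were present in 14.3% (13.9 to 14.7) of gained intervals and 5.54% (5.29 to 5.80) of lost intervals. Over all intervals the share was 14.7% in siINO80#1 and 10.0% in NTG, and over kept intervals 15.0% and 13.5%. Gained intervals thus held AP-1 about as often as kept ones, and lost intervals less often.

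The AP-1 share was higher again where the gain repeated. It was 29.7% (28.6 to 30.9) in gained intervals found with siINO80#2 and 10.4% (10.1 to 10.8) in those not found there. Of gained intervals with AP-1, 41.8% (40.4 to 43.3) repeated, against 16.6% (16.1 to 17) of those without. Over all siINO80#1 intervals the shares found with siINO80#2 were 67.5% and 49.35%, and over kept ones 86.35% and 74.9%. None of these shares was matched by strength. Median summit reads were 23 in gained intervals that repeated and 17 in those that did not. Lost intervals absent from both siINO80 lists held AP-1 in 5.14% (4.88 to 5.41), and lost intervals that siINO80#2 still had in 8.95% (8.0 to 10.0). Counted from the motif side, 24.1% (23.1 to 25.1) of NTG intervals with AP-1 were lost, against 45.9% of those without. In siINO80#1, 42.4% of intervals with AP-1 and 43.8% of those without were gained.

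At equal rank, gained intervals held AP-1 more often than kept ones in the upper deciles, and lost intervals less often in every decile. By decile within the siINO80#1 list, 31.8% (29.8 to 34), 34.4%, 34.5% and 34.3% (25.8 to 44) of gained intervals in the 7th to 10th deciles held AP-1, and 16.1% to 18.0% of kept intervals did. In the first 4 deciles the shares were lower and closer together, at 8.51% to 11.6% of gained and 7.47% to 10.0% of kept intervals. In the weakest decile they were 9.02% and 9.04%. In the NTG list the lost share stayed between 3.08% (2 of 65 intervals, 10th decile) and 6.86%, below the 10.6% to 15.3% of kept intervals in every decile. The feature mix was not matched at equal rank. In the 7th siINO80#1 decile 11.1% of gained and 31.1% of kept intervals were TSS-proximal, and in the 10th 5.88% and 51.1%.

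**Figure D2:**
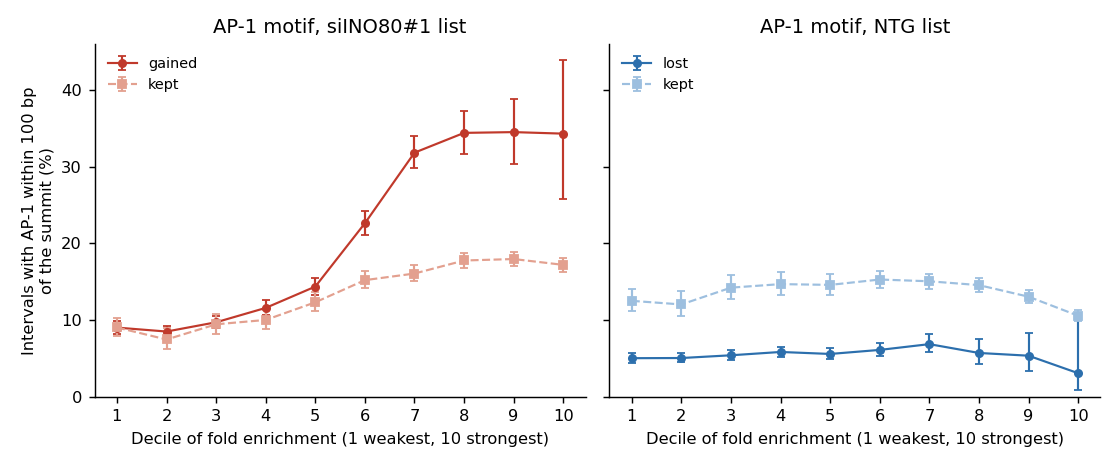
Share of intervals with AP-1 letters within 100 bp of the summit, by decile of fold enrichment, for gained and kept intervals of siINO80#1 (left) and lost and kept intervals of NTG (right). Points are percent of intervals and bars are Wilson 95% intervals. Gained intervals climb to between 31.8% and 34.5% in the 7th to 10th deciles, while lost intervals stay at or below 6.86% in all deciles.

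The AP-1 difference between gained and lost intervals was present at start sites and away from them. Away from start sites the shares were 14.7% of gained, 30.8% of gained and repeated, 19.8% of kept and 5.62% of lost intervals. At start sites they were 11.4% (10.4 to 12.6), 21.8% (18.9 to 25), 6.37% (5.98 to 6.8) and 4.94% (4.27 to 5.70). Gained intervals as a whole thus held AP-1 more often than kept ones at start sites, and less often away from them.

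The motif was centred on the summit. In bins of 10 bp, its density reached 29.4 per 1000 intervals beside the summit of gained intervals that repeated, 14.1 in kept siINO80#1 intervals and 8.37 in gained intervals that did not repeat. In lost intervals absent from both siINO80 lists the maximum was 3.64, while the bins 230 to 240 bp before and after the summit held 2.01 and 2.19. The outermost bins are no baseline, because fewer positions there can hold a whole motif. The median distance of the motif to the summit was 32 bp in gained and repeated intervals and 43 bp in these lost ones. Of the windows with the motif, 12% held several copies in the former and 2.46% in the latter.

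**Figure D3:**
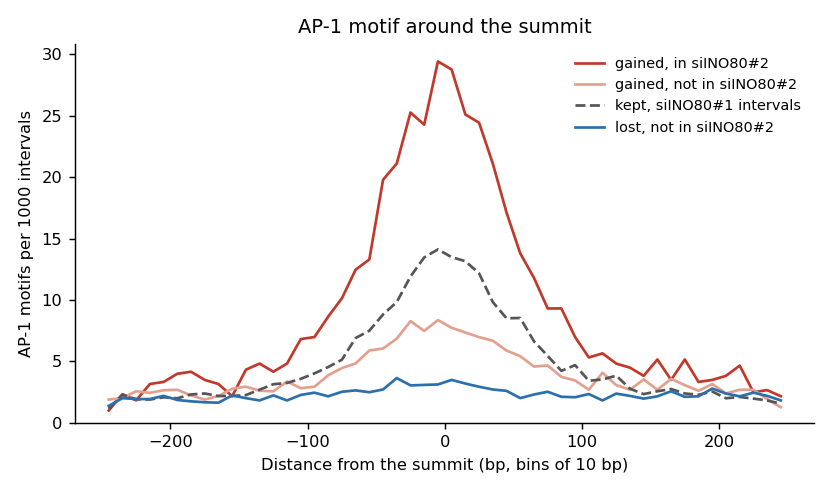
AP-1 letters per 1000 intervals in 10 bp bins within 250 bp of the summit, for gained intervals with and without a siINO80#2 interval, kept siINO80#1 intervals and lost intervals without a siINO80#2 interval. The curve of gained and repeated intervals peaks at 29.4 at the summit, and that of lost intervals does not pass 3.64.

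Among the other 14 motifs searched, gained and lost intervals differed by fewer percentage points than for AP-1. NRF1 letters (GCGCATGCG) were rare and had a larger ratio, with 24 gained (0.0805%, 0.0541 to 0.120) and 8 lost intervals (0.0266%, 0.0135 to 0.0525). FOXA letters (TGTTTAC or TGTTTGC) were in 10.05% (9.72 to 10.4) of gained, 8.01% (7.71 to 8.33) of lost and 11.8% of kept intervals, and in 13.45% of gained intervals that repeated. TEAD letters (GGAATGT or GGAATGC), bound by the effectors of the Hippo pathway, were in 7.24% (6.95 to 7.54) of gained, 6.25% (5.98 to 6.53) of lost and 7.59% of kept intervals. CTCF letters (CCANNAGGG or CCANNAGAG), the core of the insulator protein's site, ran the other way, with 9.47% (9.15 to 9.81) of gained, 10.7% (10.3 to 11.1) of lost and 12.7% of kept intervals. All motifs were searched on both strands, and a match says only that the letters are present.

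The motifs of promoter factors were found mostly in kept intervals. SP1/KLF letters (GGGGCGG) were in 12.5% of kept intervals but 2.31% of gained and 1.95% of lost. ETS letters (CCGGAAG) were in 4.97% of kept, 0.929% of gained and 0.935% of lost intervals. At start sites alone, SP1/KLF letters were in 30.9% of kept and 11.7% of gained intervals, and ETS letters in 11.6% and 3.14%. HNF4A letters (CAAAGTCCA or CAAAGGTCA) were in 2.12% of kept, 1.07% (0.960 to 1.19) of gained and 1.27% (1.15 to 1.4) of lost intervals. The letters of YY1 (AAGATGGC), a subunit of the INO80 complex, were in 1.56% of kept, 1.05% of gained and 1.01% of lost intervals. The cyclic AMP response element (CRE, TGACGTCA), the related site of ATF and CREB proteins, was in 0.763%, 0.158% (47 intervals) and 0.0965% (29 intervals).

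**Figure D4:**
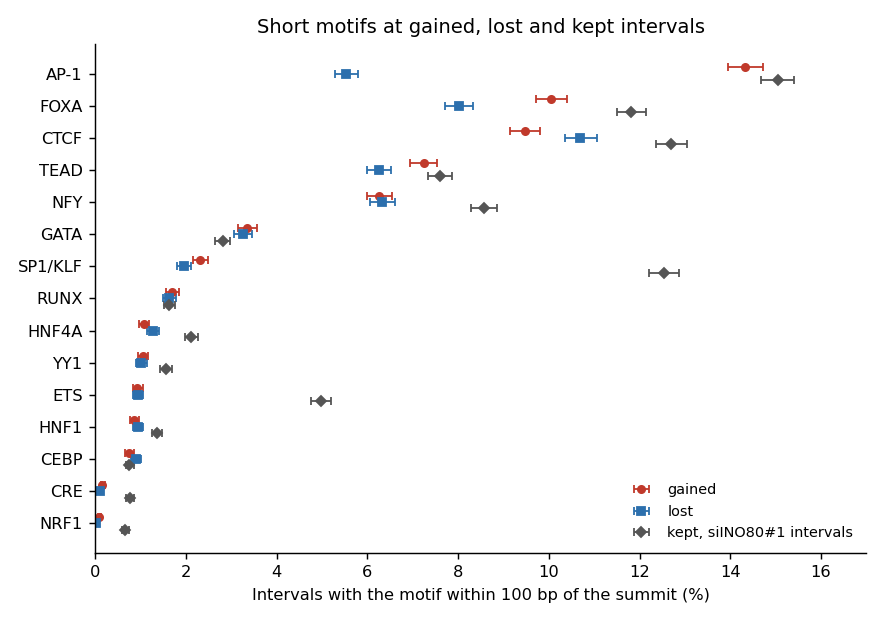
Share of gained, lost and kept (siINO80#1) intervals with the letters of each of 15 motifs within 100 bp of the summit, with Wilson 95% intervals. AP-1 has the widest separation, in percentage points, of gained (14.3%) from lost (5.54%), while SP1/KLF and ETS letters separate kept intervals (12.5% and 4.97%) from both other classes.

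Kept intervals mostly covered the same bases in both lists. The overlap covered a median of 86.4% of the NTG interval, and the strongest summits were a median of 40 bp apart, with 72.1% within 100 bp. For some the match was looser, since 15.6% of kept NTG intervals were overlapped by less than 50% of their length and 180 by 10 bp or less. A siINO80#1 interval was shared with another NTG interval in 1892 cases (4.89% of kept NTG intervals).

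The rank of kept intervals moved with AP-1. The percentile of fold enrichment in siINO80#1 minus that in NTG had a median of −0.222 over all kept NTG intervals. It was 4.45 for the 5237 with AP-1, of which 63.7% moved up, and −0.737 for the 33485 without, of which 46.6% moved up. For siINO80#2, only kept intervals that its list also had could be used, and their median was −3.80. It was 2.12 for the 4537 of them with AP-1 and −4.90 for the 25238 without. Percentiles are ranks within a list, and the siINO80#2 list is shorter, at 52399 intervals against 68784 in NTG. The sign of a siINO80#2 median is therefore not read as a change in accessibility. Of the other motifs, HNF4A, HNF1 and CTCF letters had the lowest medians in siINO80#1, at −2.33, −1.998 and −1.60. By feature the siINO80#1 medians were −0.184 at start sites, −0.149 in introns, −0.258 between genes and −1.57 in exons, where 45.8% moved up.

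The difference by AP-1 was seen in every decile of NTG strength. Intervals of the weakest decile, which start near percentile 0 and can hardly fall, moved up by a median of 35.8 with AP-1 and 23.2 without. In the 5th decile the medians were 15.7 and 2.92, in the 7th 6.64 and −3.31, and in the strongest −0.191 and −1.39. The quartiles of the AP-1 and other intervals overlapped in each decile.

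**Figure D5:**
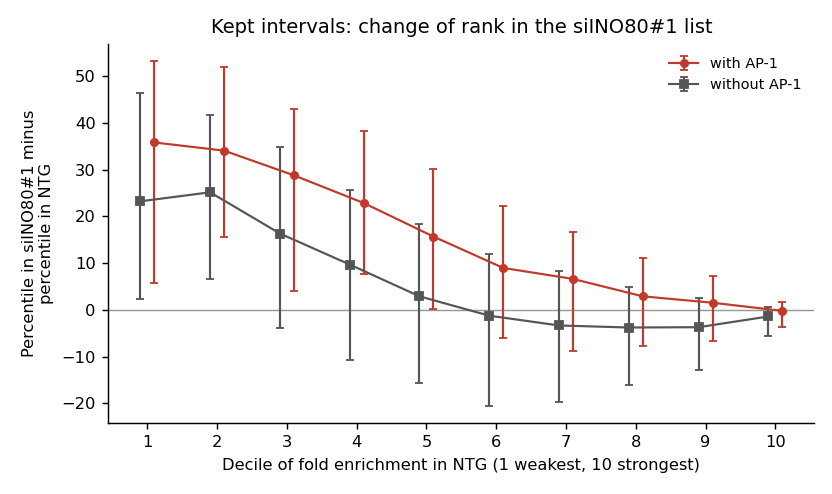
Median change of percentile from NTG to siINO80#1 for kept NTG intervals with and without AP-1 letters, by decile of fold enrichment in NTG. Bars run from the lower to the upper quartile of the intervals. The median with AP-1 lies above the median without it in all 10 deciles, from 35.8 against 23.2 in the weakest to −0.191 against −1.39 in the strongest.

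The largest single rises among kept intervals came from intervals joined in siINO80#1. The 5 NTG intervals with the largest rise, nearest to MAD2L1-DT, UCHL3, ZC3H15, UTP3 and SSX2IP, had NTG fold enrichments of 2.08 to 2.35, and the siINO80#1 interval over each also covered a neighbouring NTG interval at percentile 94.3 to 99.3. Of the 5 largest falls, EDAR, TIAM2, ACBD6 and PMM2 had 1 interval on each side, and C1orf21 had 2 siINO80#1 intervals over the NTG one. At TIAM2, a Rac activator, an intronic interval had a fold enrichment of 5.18 (percentile 78.1) in NTG, 2.23 (percentile 4.41) in siINO80#1 and 2.27 in siINO80#2. At EDAR, the ectodysplasin receptor, the values were 5.16, 2.21 and 2.03. At PMM2, a phosphomannomutase of protein glycosylation, they were 5.07, 2.29 and 2.28.

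The strongest gained intervals that repeated lay in introns or between genes, except for the first. An interval 514 bp from the 5S ribosomal RNA gene RNA5S6 had fold enrichments of 15.3 in siINO80#1 and 14.2 in siINO80#2. In an intron of JAKMIP2-AS1, with DPYSL3 (a cytoskeletal protein of growing axons) as the nearest coding gene, they were 9.42 and 6.79. At SEMA3E, which encodes a secreted guidance cue, the intronic interval shown above had 55 reads at its summit in siINO80#1 and 45 in siINO80#2 (fold enrichments of 9.10 and 7.26). At PTGER4, the EP4 receptor of prostaglandin E2, the interval had 64 and 52 reads (8.95 and 6.87) and held 2 AP-1 motifs.

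The remaining intervals of the strongest 10 were nearest to SI, EYS, FGF14, EEIG2, AVPR1A and KCNH8, with fold enrichments from 8.61 to 10.3 in siINO80#1 and from 2.68 (KCNH8) to 7.67 (EYS) in siINO80#2. The interval nearest to KCNH8, a potassium channel gene, was thus strong with siINO80#1 and weak with siINO80#2. Start sites were 551606 bp away for SI, 186166 bp for AVPR1A and 45671 bp for KCNH8. AP-1 letters were present in 4 of the 10, at DPYSL3, SEMA3E, PTGER4 and FGF14.

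The strongest gained intervals that did not repeat were nearest to MTIF3 (14.1), TP53TG3C (12.3), RABL2B (8.93), NEK5 (8.71) and KCNT2 (8.28). The start site was 1082854 bp away for KCNT2 and 254212 bp for TP53TG3C. None of the 5 held AP-1 letters near the summit. The interval at RABL2B, a small GTPase gene, lay 5 bp from its start site.

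Lost intervals were named from those that siINO80#2 also lacked. The highest fold enrichment was 17.4, for an interval 432 bp from the start site of FAM27C. At CDC27, a subunit gene of the anaphase-promoting complex, the interval had 134 reads at its summit and a fold enrichment of 16.8, and the 40 bases at its summit occur at 2 places in GRCh37. Below it, intervals nearest to IGHV3OR16-7, E2F5, FRG1, SLC9A9, UBE2E2, GALC and RFPL4B had 8.46 to 9.13 fold, with 41 to 57 reads. Some of these lay far from the gene, at 988598 bp from the start site of GALC, 850498 bp for FRG1 and 150268 bp for UBE2E2. The gene SLC9A9, which encodes an endosomal sodium/proton exchanger, was nearest to the only one of these intervals with AP-1 letters.

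Few coding promoters differed. Of 19229 protein-coding genes, 11213 (58.3%) had an interval within 1 kb of a start site in both lists and 6555 in neither. A siINO80#1 interval without an NTG interval was found at 667 genes (3.47%), of which 181 (27.1%) had a siINO80#2 interval too. The opposite was found at 794 genes (4.13%), of which 643 had no siINO80#2 interval either and 151 (19.0%) had one. Of genes with an interval in both lists 90.2% had one with siINO80#2, and of those with none in either 2.17%.

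Of promoters gained with both siRNAs, the strongest with no NTG interval nearby was that of HTR5A, a serotonin receptor gene, with a fold enrichment of 7.59 in siINO80#1 (55 reads) and 4.31 in siINO80#2. At COL11A1, a collagen chain gene, the values were 6.01 and 6.31, and at PSPC1, a paraspeckle protein gene, 4.84 and 5.46. The start site of KCNMA1, the large-conductance potassium channel gene, gained an interval with 2 AP-1 motifs (4.76 and 5.29). ATP8B1, a phospholipid flippase of the bile canaliculus, had 4.74 and 2.73. ZNF474 and ZNF614 had 5.04 and 4.71 in siINO80#1. The remaining 3 of the 10 carry limits. The ANGPTL5 interval overlaps an NTG interval of 11.4 fold that lies at the CEP126 start site and ends outside 1 kb, no siINO80#2 interval overlapped the EML1 interval itself although one lay within 1 kb of its start site, and the 40 bases at the SYT1 summit occur at 59 places.

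Among promoters lost with both siRNAs, GPR18, a G protein-coupled receptor gene, had an NTG interval of 7.22 fold with 35 reads. SLC38A4, an amino acid transporter of the liver, had one of 6.85 fold with 32 reads, 18 bp from its start site. YIPF1 (6.0), HAS2 (5.64, hyaluronan synthase), WIPF3 (5.58), OSCP1 (5.50), SLC14A1 (5.36, a urea transporter), ZNF124 (5.23) and ITGA8 (5.19, an integrin chain) followed. None of these 9 held AP-1 letters within 100 bp of the summit.

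Liver genes were next examined by lists of known genes, each interval being given to the coding gene with the nearest start site. Near the 12 hepatocyte markers, 19 of 88 siINO80#1 intervals (21.6%, 14.3 to 31.3) were gained and 48 of 113 NTG intervals (42.5%, 33.8 to 51.7) were lost, beside 43.6% and 43.7% over all intervals. These shares depend on feature, at 19.3% gained and 20.3% lost for TSS-proximal intervals, and the gene lists were not matched by feature. APOB, the main protein of low-density lipoprotein, had 3 gained and 13 lost intervals, and 12 of the lost ones were absent with siINO80#2 as well. FOXA2 had 9 gained and 14 lost, ALB (albumin) 2 and 6, TTR (transthyretin) 2 and 5, and HNF4A 0 and 3. APOB lies on chromosome 2 and FOXA2 on chromosome 20, both among the chromosomes with the densest intervals. At the start sites of these genes the fold enrichment was 4.33 in NTG and 3.46 in siINO80#1 for APOB, 3.59 and 3.25 for ALB, and 3.94 and 4.51 for TTR.

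The list of 53 hepatocyte secreted protein genes, which shares APOB, ALB, TTR and other genes with the markers, had overlapping intervals for the same shares, with 40 of 135 intervals gained (29.6%, 22.6 to 37.8) and 71 of 165 lost (43.0%, 35.7 to 50.7). Its start sites were in both lists for 35 genes, in NTG alone for APOC1, FETUB and C9, among others, and in siINO80#1 alone for ORM1 (3.17). FETUB, which encodes the plasma protease inhibitor fetuin-B, had an NTG interval of 3.94 fold at its start site and 4 lost intervals with none gained.

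Near liver metabolism genes, 71 of 165 intervals were gained (43.0%) and 85 of 181 lost (47.0%). CYP8B1 (3.20), a sterol hydroxylase of bile acid synthesis, and PCK1 (2.70), the gluconeogenic enzyme, had a start-site interval in NTG only. ARG1, arginase of the urea cycle, had one in NTG (3.93) and siINO80#2 (3.42) but not in siINO80#1. CYP2E1, an ethanol-oxidizing cytochrome P450, had one in siINO80#1 (4.87) but not in siINO80#2. CPS1, the first enzyme of the urea cycle, had an equal 40 gained and 40 lost intervals around it. It thus gave 40 of the 71 gained and 40 of the 85 lost intervals of this list. CPS1 lies on chromosome 2, where 56.5% of all siINO80#1 intervals were gained and 55.2% of all NTG intervals were lost.

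Liver transcription factor genes kept their start sites in both lists at 23 of 27 genes. NR1H4, the bile acid receptor FXR, had a start-site interval in NTG (3.32) and siINO80#2 (3.15) alone. Nearby, 51 of 179 intervals were gained (28.5%, 22.4 to 35.5) and 65 of 186 lost (34.9%, 28.5 to 42.0). Gained and repeated examples were an intronic GATA6 interval (5.69 and 3.63) and one 220923 bp from PROX1 with an AP-1 motif (3.84 and 5.90).

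The genes of AP-1 itself were examined next. Of 12 AP-1 family genes, 9 had a start-site interval in both lists, and JUNB, BATF and JDP2 had none in either. The start-site fold enrichments in NTG and siINO80#1 were 6.35 and 5.80 at JUN, 3.24 and 3.63 at FOS, and 5.72 and 7.29 at ATF3. In siINO80#2 those of JUN, FOS and ATF3 were 5.321, 2.677 and 5.651, each below the NTG value. Among the remaining genes with an interval in both lists, the siINO80#1 value was above that of NTG at FOSB. It was below at FOSL1, FOSL2, JUND, BATF2 and BATF3. JUN had 5 gained intervals nearby, 0 of them repeated, and 5 lost.

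Around 38 AP-1 and stress response genes, 91 of 247 intervals were gained (36.8%, 31.1 to 43.0), of which 27 repeated and 22 held AP-1, and 101 of 253 were lost (39.9%, 34.1 to 46.1). The MMP10 start site, of a matrix metalloproteinase, gained an interval of 4.39 fold that repeated (4.10), and that of IL6, the acute-phase cytokine, gained one of 2.87 fold (2.63). Gains with an AP-1 motif away from start sites were nearest to DUSP6, a phosphatase of ERK kinases (7.31 and 7.10), and ANKRD1 (4.46 and 4.34). They lay 158551 bp from the DUSP6 start site, in an intron of LINC02458, and 39541 bp from that of ANKRD1. Another, nearest to TXNRD1, thioredoxin reductase (4.37 and 4.66), lay 164 bp from the start site of ENSG00000257732. Start-site intervals of PLAU (2.37), TGFB1 (2.22) and IER3 (2.29) were found in NTG only.

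Of 29 interferon response genes, 18 had a start-site interval in both lists, 2 in siINO80#1 alone and 2 in NTG alone. Near them 18 of 59 intervals were gained (30.5%, 20.3 to 43.1) and 16 of 58 lost (27.6%, 17.7 to 40.2). Over all intervals the shares were 43.6% and 43.7%, and over TSS-proximal ones 19.3% and 20.3%. OAS1 (4.98) and OAS3 (3.15), which make the antiviral signal 2-5A, had start-site intervals in NTG only, and their neighbour OAS2 had one in siINO80#1 only (2.44). Gained and repeated intervals lay within 1 kb of start sites of IFIT3 (4.35 and 3.30, with an AP-1 motif) and RIGI, a sensor of viral RNA (2.92 and 2.53), but both genes also had an NTG interval at a start site (4.46 and 7.27). A further one lay 7465 bp from IFNB1 (3.90 and 4.10).

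The remaining lists are given beside the 43.6% and 43.7% over all intervals. They were not matched by feature, and TSS-proximal intervals as a whole had 19.3% gained and 20.3% lost. All 15 genes of INO80 complex subunits had start-site intervals in both lists, with 11 of 44 intervals gained (25%, 14.6 to 39.4) and 15 of 49 lost (30.6%, 19.5 to 44.5). Ribosomal protein genes had 28.6% gained and 33.9% lost, replication and cell cycle genes 24.5% and 26.5%, and p53 target genes 27.4% and 36.7%. Among genes of chromatin remodeler ATPases the shares were 37.3% (38 of 102) and 42.5%, and among Polycomb and HOX genes 22.2% and 32.4%.

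Marker genes of other cell types were counted in the same way. Neuronal markers had 63 of 102 gained (61.8%, 52.1 to 70.6) and 43 of 82 lost (52.4%, 41.8 to 62.9), most of them around MAP2 on chromosome 2, with 47 gained and 30 lost. For endothelial markers the shares were 52.2% and 56.6%, for blood markers 47.8% and 51.9%, and for fibroblast and stellate markers 38.6% and 46.3%. COL3A1, a fibrillar collagen gene also on chromosome 2, had a start-site interval in siINO80#1 (2.85) and siINO80#2 (2.71) but not in NTG.

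Counted by nearest coding gene, 10965 genes had a gained or lost interval, with more gained than lost at 4344, more lost at 5010 and equal numbers at 1611. The largest surplus of gained intervals was nearest to LRFN5, a synaptic adhesion gene, with 237 gained and 180 lost. Only 26 gained and 18 lost intervals lay inside LRFN5 itself. Next came NOVA1, a neuronal splicing regulator, with 147 and 94, and 20 and 8 inside the gene. All 10 genes with the largest gained surplus (LRFN5, NOVA1, FBXO33, FSIP2, ACVR2A, CTNNA2, CLEC14A, ZEB2, KHDRBS2 and BMP2) were on chromosomes 2, 6, 14 and 20. The largest surplus of lost intervals was nearest to FNDC3B, with 12 gained and 34 lost, and 11 and 33 inside the gene. Next came SLC39A10, a zinc transporter gene (56 and 77), and FAM98A (32 and 52). Nearest to NLGN1, a neuroligin gene, 8 intervals were gained, 0 of them repeated, and all 25 lost ones were absent from siINO80#2 too. GOT2, KLHL1, CDH11, LINGO2 and DPP10 were also among the 10 with the largest lost surplus.

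Chromosomes 2, 6, 14 and 20 stood apart from the others. They held 31.1 to 47.7 NTG intervals per Mb, against 9.84 to 24.0 on the other 18 autosomes. Gained shares were 46.9% to 56.5% there and 26.5% to 42.6% elsewhere, and lost shares 46.3% to 55.2% and 29.6% to 46.1%. Gained intervals on them held AP-1 in 9.49% to 14%, against 11.8% to 22.6% on the others. They carried 44.5% of all gained and 42.0% of all lost intervals. With these chromosomes left out, gained intervals held AP-1 in 17.9% and lost ones in 6.01%, and the gained share that repeated was 22.8%.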

How the data were processed

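ATAC-seq of HepG2 cells was analysed from 1 peak list per group (NTG, siINO80#1, siINO80#2), deposited by the authors, in which replicates A to C are pooled. The submitters' processing notes name Trim Galore 0.4.1, Bowtie2, SAMtools, MACS2 and deepTools 2.2.4 with hg19. How the cut sites were shifted for the transposase is not given in the sources used here. The deposited columns used were the fold enrichment (a ratio of summit reads to local background) and the −log10 p-value and −log10 q-value from the authors' peak caller.

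Summits sharing an interval were merged into 1 unique interval, whose highest fold enrichment was kept, on chromosomes 1 to 22. Reads at the summit were solved from fold enrichment and p-value under the Poisson model of MACS2. Relative depth is the lowest background divided by the narrowest width, set to 1 in NTG. Overlap was 1 bp or more. Start sites (220854) and features came from GENCODE 44 on GRCh37, with the TSS-proximal limit at 1 kb, and motifs were searched in 200 bp around the summit. Deciles and percentiles are of fold enrichment within a list. Of 425 listed genes in 17 lists, 424 were found.

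The genes named are the 10 strongest gained (repeated in siINO80#2), lost (absent from it) and promoter cases of each direction, the 5 strongest gained without repeat, the 5 largest percentile rises and falls, the 10 genes with the largest surplus each way, and examples from the gene lists. The members and lists were chosen with earlier results of these data known, and the windows with several AP-1 motifs after their values were seen. Overlaps and distances (1500 simulated intervals, against bedtools 2.31.1), motif search (920 planted motifs) and read recovery (5000 summits) were checked on simulated data, all with 100% right. Alternatives covered overlap, q-value, list size, merging, nearby intervals, chromosomes X and Y, start-site definition and motif window. Cutoffs at 5 times the genome background and the omission of chromosomes 2, 6, 14 and 20 were chosen after seeing the data. Tables were handled with pandas 2.3.3 and numpy 2.4.6 in Python 3.11.15, sequences with samtools 1.23.1 and pysam 0.24.0, statistics with scipy 1.17.1 and plots with matplotlib 3.10.9. Some of the genes that meet these rules are not reported here.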

Additional observations from a re-analysis of the deposited data

How the results depend on the processing

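No paired analysis was possible because each group has 1 pooled list and the replicate letters A to C carry no values. For the same reason no replicate could be left out, and no result has a test. Values are given in the order gained share, lost share, gained TSS-proximal share, lost TSS-proximal share, AP-1 share of gained, AP-1 share of lost, gained intervals found with siINO80#2 and lost intervals absent from it. As reported above they were 43.6%, 43.7%, 11%, 11.7%, 14.3%, 5.54%, 20.2% and 89.5%. With a −log10 q-value of at least 5 they were 27.6%, 24.5%, 17.8%, 19.6%, 30.3%, 7.56%, 35.4% and 86.3%. With an overlap of at least 50% of the interval they were 52.5%, 52.5%, 13.2%, 13.6%, 15.1%, 6.12%, 18.5% and 90.1%. With the 20000 strongest intervals of each list they were 26.4%, 26.3%, 20.4%, 25.3%, 31.8%, 8.20%, 53.5% and 73.7%. With summits of at least 5 times the genome background (chosen after seeing the data) these 8 values were 22.3%, 30.3%, 20.4%, 21.6%, 29.1%, 7.49%, 32.4% and 89.0%. Where unmatched intervals with an interval of the other list within 1 kb were left out, they were 37.0%, 37.2%, 9.29%, 10.1%, 15.2%, 5.65%, 25.1% and 86.5%, and a siINO80#2 interval within 1 kb then counted as present. Without chromosomes 2, 6, 14 and 20 (also chosen after seeing the data) the values were 38.0%, 39.2%, 14.1%, 14.9%, 17.9%, 6.01%, 22.8% and 89.7%.

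Merging intervals within 500 bp gave a gained share of 42.7%, a lost share of 43.0%, TSS-proximal shares of 9.76% and 10.7% and an AP-1 share of 14.9% of gained intervals, and left the other results within their intervals. Chromosomes X and Y moved none of the 8 results beyond its interval. The TSS-proximal shares of gained and lost intervals were 18.1% and 19.5% within 2.5 kb, and 6.99% and 7.60% for protein-coding start sites. The AP-1 shares were 9.40% and 3.11% within 50 bp of the summit and 16.2% and 6.74% over the whole interval. In all these settings gained intervals held AP-1 more often than lost ones, and the TSS-proximal share of lost intervals was above that of gained ones. The lost share was at or above the gained share except with the q-value setting (27.6% gained, 24.5% lost) and, by a small margin, with the 20000 strongest intervals, and the cause was not tested.

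Low read counts limit the weak calls, since the lowest summits rest on 14 reads in siINO80#1 and 12 in NTG. An interval can fail to be called with a small change in reads. Both siRNA pools are deeper than the NTG pool, at 1.43 (siINO80#1) and 1.44 (siINO80#2) times its depth. A repeat with siINO80#2 is thus not free of this difference, whose part was not tested. Pooled lists cannot show whether a gained or lost interval was present in each replicate.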
